A study of Rattus norvegicus with 6 samples.

Results

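The dopamine receptors are the 5 genes Drd1, Drd2, Drd3, Drd4 and Drd5 (ENSRNOG00000023688, ENSRNOG00000008428, ENSRNOG00000060806, ENSRNOG00000017927 and ENSRNOG00000005338). They were taken by symbol from the 25629 genes of the deposited single-nucleus count tables, and each symbol named 1 gene. The nuclei were isolated from nucleus accumbens tissue of Sprague-Dawley rats aged 90 to 120 days, all of which had self-administered heroin up to day 14. The sessions began with 7 days at a fixed ratio of 1 and 4 days at a fixed ratio of 3, then came a progressive ratio test on day 12 and a fixed ratio of 3 on days 13 and 14. Saline (replicates 1, 2 and 3) or the opioid antagonist naloxone (replicates 4, 5 and 6) was then injected, and tissue was taken 1 h later. There was no group without heroin, so both groups share that history, and each of the 6 libraries pools tissue of males and females.

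Dopamine receptors are G protein-coupled receptors of 2 classes. Drd1 and Drd5 encode receptors that raise cyclic AMP through Gs or Golf, and Drd2, Drd3 and Drd4 encode receptors that lower it through Gi and Go. In the striatum Drd1 and Drd2 are known to mark the spiny projection neurons of the direct and the indirect pathway, and Drd3 is known for the ventral striatum and the islands of Calleja.

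The 6 libraries held 64260 barcodes, against the 44592 nuclei named in the labels. Filters on genes, mitochondrial UMIs and called doublets left 58960 nuclei, and 463 barcode sequences occurred in more than 1 library. A UMI (unique molecular identifier) marks 1 captured RNA molecule. The libraries held 55739350 to 76272798 UMIs, with medians of 4277 to 6506 UMIs per used nucleus. Naloxone replicate 5 stood apart. Its counts differed from those of the other naloxone libraries with a chi-square of 39.6 and 48.1 per degree of freedom, against 10.7 to 16.0 between the other pairs of replicates within a group, so the results that moved most without it are also given without it.

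Nuclei were gated on UMIs of marker genes other than the receptors. The spiny gates are named by Adora2a (an adenosine receptor gene of indirect-pathway neurons, counted with Gpr6 and Gpr52), Ebf1 and Isl1 (transcription factors of direct-pathway neurons), Chst9 with Grm8, and Casz1-Mdfic with Otof. Of these, the Chst9 and Casz1-Mdfic gates asked for a Gad1 or Gad2 UMI and not for the spiny markers Pde10a, Rgs9 or Bcl11b. The Adamtsl1 gate asked for Adamtsl1 with Tshz1 or Rreb1 and for little Pde10a. The Slc5a7 gate (choline transporter) holds cholinergic interneurons, the Sst-Npy and Kit gates hold other interneurons, and 5 gates hold glia and endothelium. The 14 gates held 20371 nuclei (34.6%). Spiny and GAD-bearing nuclei outside any gate were kept as 2 mixtures, here called other spiny (15303 nuclei) and other GAD (8559 nuclei). Penk and Pdyn, which no gate used, differed between the Adora2a and Ebf1 gates in the direction of their labels. Penk, the enkephalin gene, stood at 143 ± 46.6 CPM (UMIs per 1000000 UMIs, SD, n = 6 libraries) in the Adora2a gate and 21.6 ± 7.57 in the Ebf1 gate. Pdyn, the dynorphin gene, stood at 2.81 CPM (1.21 to 4.60 over libraries) and 23.5 CPM (15.1 to 29.6). Penk was also read in oligodendrocytes above its Ebf1 level, as given in the closing observations. Such markers of the other gates are not given here. Slc6a3, the dopamine transporter that defines dopamine neurons, had 12 UMIs in all nuclei.

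Of the Gs-coupled class, Drd1 gave 6098 UMIs in 5096 nuclei (8.64%) and Drd5 gave 10 UMIs in 10 nuclei. Of the Gi-coupled class, Drd2 gave 37515 UMIs in 8821 nuclei (15.0%), Drd3 gave 17245 UMIs in 7867 nuclei (13.3%) and Drd4 gave 1 UMI. The gates held 27.9% of the Drd1, 30.4% of the Drd2 and 22.0% of the Drd3 UMIs, and with both mixtures the shares were 82.2%, 84.7% and 78.5%.

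Drd1 was detected in a minority of nuclei of every gate. In the Ebf1 gate its level was 24.4, 31.6 and 22.0 CPM in saline replicates 1, 2 and 3 and 24.8, 27.0 and 24.5 CPM in naloxone replicates 4, 5 and 6, and the groups overlapped. That gate had a Drd1 UMI in 22.0 ± 2.68% of nuclei (SD, n = 6), the Isl1 gate in 23.7 ± 7.05%, the Casz1-Mdfic gate in 26.6 ± 8.96% and the Chst9 gate in 13.2 ± 3.26%. Among positive Ebf1 nuclei 82.8% held exactly 1 Drd1 UMI. The Adora2a gate had one in 3.67 ± 1.34% of nuclei at a similar depth (median 10384 UMIs per nucleus, against 9402 in the Ebf1 gate), and the Slc5a7 gate in 3.40 ± 4.41%.

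By CPM, Drd1 ran from 34.6 ± 10.7 in the Casz1-Mdfic gate, 26.9 ± 8.90 in the Isl1 gate, 25.7 ± 3.32 in the Ebf1 gate and 21.5 ± 3.13 in the Chst9 gate to 3.93 ± 1.75 in the Adora2a gate and 2.65 ± 3.28 in the Slc5a7 gate. The endothelial gate at 29.8 ± 32.6 CPM rests on 11 UMIs. Oligodendrocytes, the gate that all others were compared with, showed 14.8 ± 2.98 CPM of Drd1 at a median depth of 1865 UMIs per nucleus. Whether this was RNA of their own was not tested. Drd1 was above the oligodendrocyte level in 6 of 6 libraries in the Ebf1, Isl1 and Chst9 gates and below it in 6 of 6 in the Adora2a and Slc5a7 gates. Each of these gave the smallest p that 6 libraries allow (exact sign-flip test, 2-sided, p = 0.031), and none passed adjustment over the 78 pairs of gates compared for Drd1, Drd2 and Drd3 (adjusted p = 0.135). Casz1-Mdfic, Isl1, Ebf1 and Chst9 did not differ from their neighbours in the order beyond the spread between libraries. The Sst-Npy gate was above oligodendrocytes in 4 of 6 libraries (exact sign-flip p = 0.188, adjusted p = 0.385). By UMIs per 100 nuclei the contrast with glia was wider: 27.3 ± 5.47 in the Ebf1 gate, 31.5 ± 13.7 in the Isl1 gate and 3.04 ± 0.41 in oligodendrocytes.

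**Figure D1:**
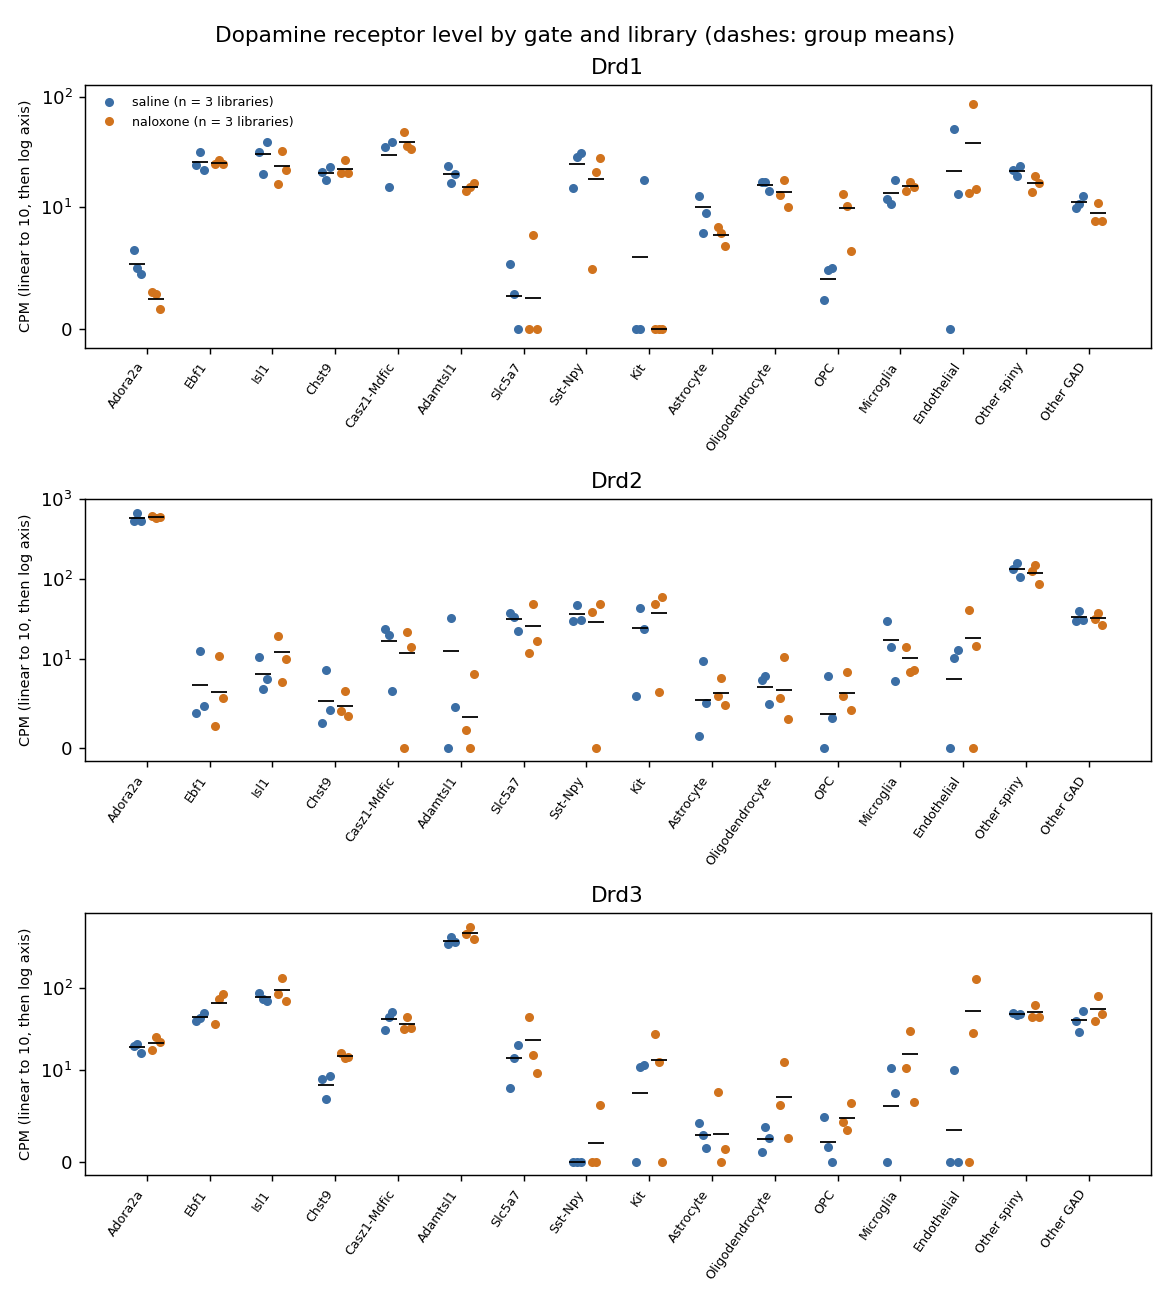
Drd1, Drd2 and Drd3 level (CPM, linear up to 10 and logarithmic above) in each gate and mixture, with 1 point per library and dashes for group means of 3 saline and 3 naloxone libraries. Drd2 stood out in the Adora2a gate at 532 to 676 CPM and Drd3 in the Adamtsl1 gate at 342 to 555 CPM, while Drd1 had no single high gate.

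Drd2 was concentrated in the Adora2a gate, where 96.0 ± 0.76% of nuclei held a UMI (SD, n = 6). Its level there was 532, 676 and 537 CPM after saline and 619, 582 and 593 CPM after naloxone. Saline replicate 2 was the highest library, and the naloxone values lay inside the saline range. The median Adora2a nucleus held 6 Drd2 UMIs, the middle 50% lay between 3 and 9, and the highest held 62. The 63 nuclei of that gate without a Drd2 UMI had a median of 8105 UMIs of all genes, against 10476 in those with one.

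Outside the Adora2a gate Drd2 was far lower. The other neuronal gates allowed no UMI of Adora2a, Gpr6 or Gpr52, while the glial gates had no such rule. The part of this rule in their Drd2 levels was not tested. The interneuron gates came next, with 32.9 ± 18.1 CPM in the Sst-Npy gate, 31.3 ± 22.8 in the Kit gate and 28.7 ± 13.9 in the Slc5a7 gate, and these did not differ from each other beyond their spread. Drd2 in Adora2a nuclei was 17.9 times its level in the Sst-Npy gate, higher in 6 of 6 libraries (exact sign-flip p = 0.031, adjusted p = 0.135). In cholinergic Slc5a7 nuclei 18.2 ± 8.51% held a Drd2 UMI, and the level there was above oligodendrocytes (6.69 ± 2.60 CPM) in 6 of 6 libraries (exact sign-flip p = 0.031, adjusted p = 0.135). Of its 32 positive nuclei, 50.0% held more than 1 Drd2 UMI. This gate was the deepest (median 12789 UMIs), and at 1000 UMIs per nucleus its Drd2 share was 0.60 ± 1.46%, against 0.61 ± 0.33% in oligodendrocytes. The Ebf1 gate (6.72 ± 4.10 CPM), the Isl1 gate (10.3 ± 4.76) and the Chst9 gate (5.04 ± 2.19) were not told apart from oligodendrocytes. The Ebf1 gate had a Drd2 UMI in 2.58 ± 1.22% of nuclei, against 1.14 ± 0.32% in the far shallower oligodendrocytes.

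Of the 3129 nuclei with at least 5 Drd2 UMIs, 31.7% lay in the Adora2a gate and 51.3% among other spiny nuclei, while 1 was an oligodendrocyte and 8 were Isl1 nuclei. Other spiny nuclei held Drd2 at 127 ± 27.1 CPM, which is an average over positive nuclei (27.8 ± 2.81%) and negative ones.

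Drd3 had a different leading gate. In the Adamtsl1 gate (519 nuclei) it stood at 342, 424 and 369 CPM after saline and 457, 555 and 400 CPM after naloxone. Naloxone replicate 5 was the highest library, and the groups overlapped. A Drd3 UMI was found in 74.9 ± 5.60% of these nuclei at a median depth of only 4137 UMIs, and the median nucleus held 2. The level was 4.90 times that of the Isl1 gate and 88.4 times that of oligodendrocytes, higher in 6 of 6 libraries in both cases (exact sign-flip p = 0.031, adjusted p = 0.135). Drd1 in the same gate, at 17.7 ± 3.58 CPM, was not told apart from oligodendrocytes, and Drd2 rested on 16 UMIs.

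Among spiny gates Drd3 followed the order Isl1 (86.6 ± 24.0 CPM), Ebf1 (54.8 ± 19.7), Casz1-Mdfic (39.4 ± 8.34), Adora2a (20.3 ± 3.31) and Chst9 (11.6 ± 3.70). Each was above oligodendrocytes (4.80 ± 4.14 CPM) in 6 of 6 libraries (exact sign-flip p = 0.031, adjusted p = 0.135). Isl1 was above Ebf1 in 5 of 6 libraries (exact sign-flip p = 0.0625, adjusted p = 0.188) and Ebf1 was above Casz1-Mdfic in 4 of 6 (exact sign-flip p = 0.125, adjusted p = 0.315). A Drd3 UMI was present in 37.0 ± 5.19% of Isl1 nuclei, 25.0 ± 5.05% of Ebf1 nuclei, 10.8 ± 1.41% of Adora2a nuclei, 15.0 ± 3.21% of Slc5a7 nuclei and 0.64 ± 0.48% of oligodendrocytes. Sst-Npy nuclei held 2 Drd3 UMIs in 185 nuclei, although 15.9 ± 11.6% of them held a Drd2 UMI. Nuclei with at least 5 Drd3 UMIs numbered 735, of which 57 were in the Adamtsl1 gate, 64 in the Isl1 gate, 35 in the Ebf1 gate, 19 in the Adora2a gate and 311 among other spiny nuclei.

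**Figure D2:**
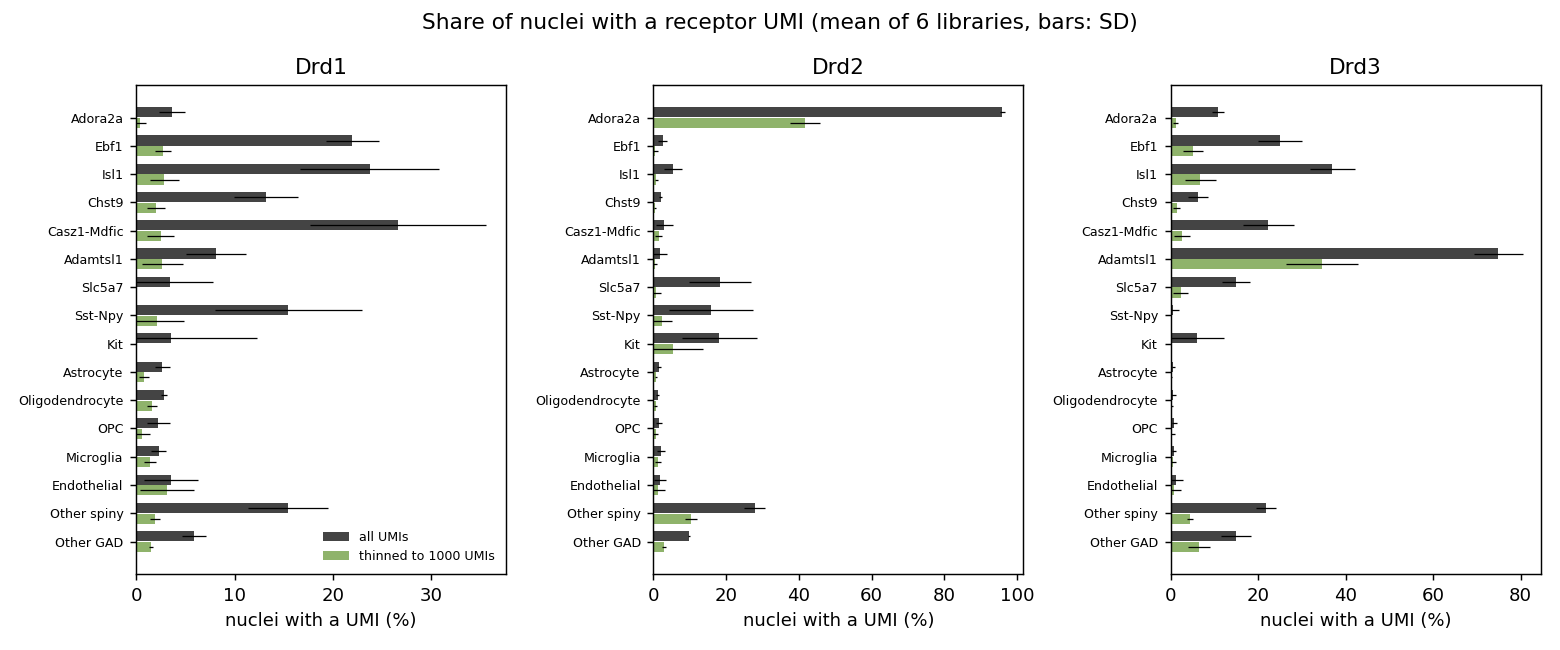
Percentage of nuclei with a UMI of Drd1, Drd2 or Drd3 in each gate, with all UMIs (dark) and after thinning each nucleus to 1000 UMIs (green), as means of 6 libraries with SD bars. At equal depth the Adora2a gate kept Drd2 in 41.7% and the Adamtsl1 gate kept Drd3 in 34.6% of nuclei, while Drd1 was under 4% in every gate.

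At 1000 UMIs per nucleus the Adora2a gate still led for Drd2 and the Adamtsl1 gate for Drd3. Drd2 was found in 41.7 ± 4.17% of Adora2a and 0.61 ± 0.33% of oligodendrocyte nuclei, and Drd3 in 34.6 ± 8.19% of Adamtsl1 and 0.34 ± 0.28% of oligodendrocyte nuclei. Drd1 came to 2.70 ± 0.84% in Ebf1 nuclei and 1.60 ± 0.50% in oligodendrocytes, and the Casz1-Mdfic gate, highest at full depth, came to 2.48 ± 1.41%, below the Isl1 (2.84%), Ebf1 and Adamtsl1 (2.67%) gates. Thinning left out no nucleus of the Adora2a, Ebf1 and Adamtsl1 gates and 8.63% of the oligodendrocytes.

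Drd4 and Drd5 were at the limit of detection. The single Drd4 UMI lay in a nucleus of no gate. Of the 10 Drd5 nuclei, 5 were other GAD nuclei, 2 were Slc5a7 nuclei, 1 was an Sst-Npy nucleus and 2 were in no gate. In the Slc5a7 gate 2 of 177 nuclei held Drd5, or 1.13% (exact 95% interval 0.137 to 4.02%, counting error only). None of the 1594 Adora2a or 1283 Ebf1 nuclei did, which allows shares of nuclei with a UMI of up to 0.188% and 0.234% (3 counts over the gate's nuclei), with exact 95% upper bounds of 0.231% and 0.287%.

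The genes whose levels followed each receptor most closely over the 14 gates were ranked by Pearson's r of log2(mean CPM + 1), among 12734 genes that reached 10 CPM in a gate. The receptors and all genes used in gating were left out, so Adora2a or Adamtsl1, for example, could not appear. For Drd2 they were Oprd1 (delta opioid receptor, r = 0.72), Gucy1a1 and Gucy1b1 (subunits of soluble guanylyl cyclase, 0.68 and 0.64), Sdr16c6 (0.63) and Ndst3 (0.62). For Drd3 they were Cacna1h (a T-type calcium channel, 0.89), Gpr149 (0.88), Npy5r (a neuropeptide Y receptor, 0.87), Ap1s2 (0.86) and Gpr26 (0.86), all highest in the Adamtsl1 gate. For Drd1 they were Dtwd1 (0.77), Pcgf1 (0.76), Pdyn (0.76), Wdr13 (0.74) and Lyst (0.73). Pcgf1 and Wdr13 were highest in the endothelial gate, where Drd1 rested on 11 UMIs. Dtwd1 was highest in the Chst9, Pdyn in the Ebf1 and Lyst in the Casz1-Mdfic gate. Of the genes named for Drd2, Ndst3 was highest in the Slc5a7 gate and the others in the Adora2a gate. The gates share libraries and differ in depth, so these values are descriptions.

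Co-detection asks whether 1 nucleus holds UMIs of 2 receptors more or less often than their separate shares give. Among other spiny nuclei, 212 held both Drd1 and Drd2, against 634 expected within libraries, or 0.33 times. Drd2 with Drd3 came to 530 nuclei against 933, or 0.57 times. Drd1 with Drd3 went the other way, with 789 nuclei against 496, or 1.59 times. All 3 directions held in 6 of 6 libraries.

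After thinning to 1000 UMIs the log2 odds ratios in other spiny nuclei were -1.92 ± 1.05 for Drd1 with Drd2, -1.58 ± 0.40 for Drd2 with Drd3 and 1.10 ± 0.69 for Drd1 with Drd3 (SD, n = 6, each exact sign-flip p = 0.031). They rest on 8 nuclei with both against 31.3 expected, 27 against 73.9, and 22 against 13.1. Adjustment over the 24 combinations of pairs and gates gave 0.042, but 18 of these had fewer than 6 expected nuclei, where the added count of 0.5 by itself can put the ratio above 0, so those are not reported. A test of observed minus expected nuclei without an added count, chosen after seeing the data, gave the same 3 directions and an adjusted p = 0.150.

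In the named gates Drd1 with Drd3 at full depth came to 90 nuclei against 68.9 in the Ebf1 gate, 128 against 98.0 in the Isl1 gate and 29 against 26.6 in the Casz1-Mdfic gate. Nuclei with both had medians of 11485 UMIs in the Ebf1 gate, against 9919 in those with 1 of the pair. At 3000 UMIs the count was 7 against 11.1 in the Ebf1 gate (above expectation in 1 of 6 libraries) and 22 against 13.0 in the Isl1 gate (5 of 6). The part of depth in these counts was not tested. In Adora2a nuclei Drd3 was held by 173, of which 160 also held Drd2, against 166 expected.

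Because each library mixes sexes, a droplet with 2 nuclei can show Xist together with Y-linked UMIs. Among other spiny nuclei with both Drd1 and Drd2, 29.2% did, against 8.64% of those with only 1 of them. For Drd2 with Drd3 it was 24.0% against 8.48%, and for Drd1 with Drd3 it was 9.76% against 9.73%. Nuclei already called as doublets showed it in 31.4%. The part of joined nuclei in the Drd1 with Drd2 counts was not tested further.

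**Figure D3:**
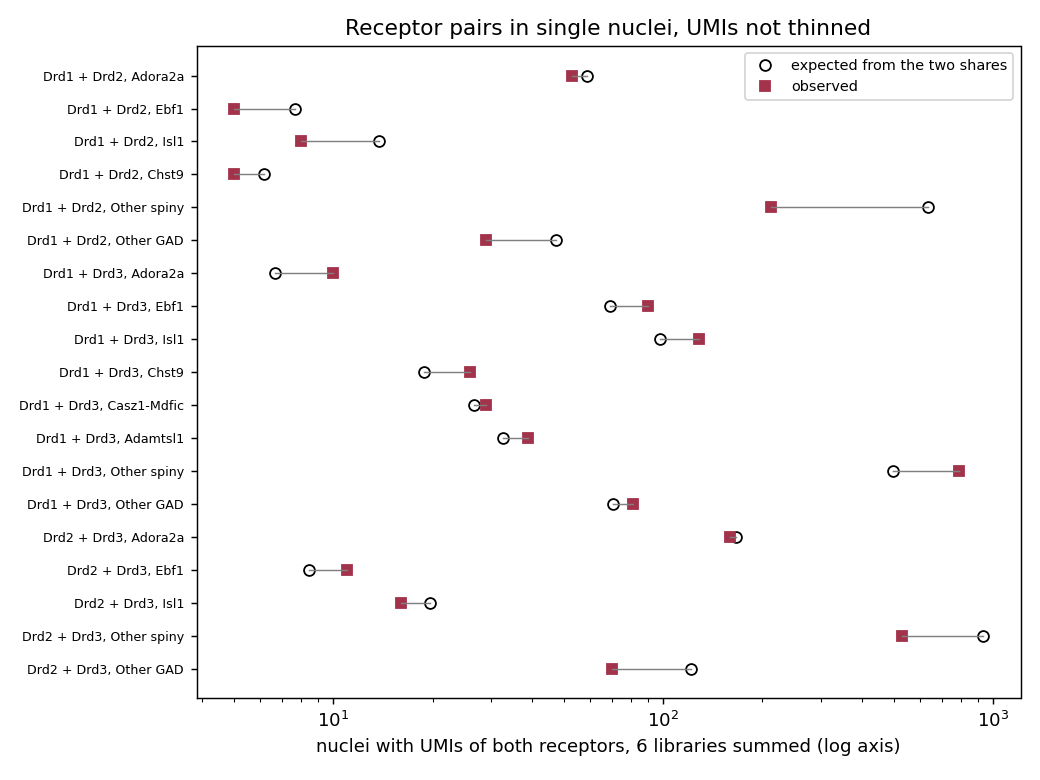
Nuclei with UMIs of both receptors of a pair (squares) and the number expected from the separate shares within libraries (circles), summed over 6 libraries without thinning, on a log axis. Drd1 with Drd2 fell short of expectation among other spiny nuclei (212 against 634) and Drd1 with Drd3 exceeded it (789 against 496).

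Naloxone was compared with saline within each gate by edgeR's quasi-likelihood test on summed counts, adjusted over all genes tested (Benjamini-Hochberg). No receptor passed. The fits gave 28 receptor tests, of which 0 were called by edgeR, 0 by DESeq2 and 6 had an unadjusted p under 0.05. Of all genes the percentages called were 0 in the Adora2a, Ebf1, Isl1, Casz1-Mdfic and other GAD fits, 0.129 in Chst9, 0.0177 in Adamtsl1, 0.244 in other spiny, 0.48 in oligodendrocytes and 0.0519 in all nuclei. An unadjusted p under 0.05 was given to 7.97% of genes in Adora2a, 8.96% in Ebf1, 6.97% in Isl1, 8.51% in Chst9, 6.42% in Casz1-Mdfic, 4.95% in Adamtsl1, 15.4% in other spiny, 8.75% in other GAD, 10.2% in oligodendrocytes and 14.2% in all nuclei. Drd4 and Drd5 passed the count filter in no fit, and the Slc5a7 and Kit gates had too few nuclei per library (19 and 14 at the fewest) for one. The labels do not say how the animals were divided over libraries beyond the pooling of sexes. In sums over a mixture, fewer nuclei of a type and less RNA per nucleus cannot be told apart.

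Drd1 in the Ebf1 gate did not pass the test (log2 change -0.04, 95% interval -0.42 to 0.33, adjusted p = 0.961). In the Isl1 gate it was 31.6, 19.9 and 39.2 CPM after saline and 16.1, 32.6 and 21.9 after naloxone, overlapping groups with a log2 change of -0.37 (interval -0.92 to 0.18, adjusted p = 0.773). Without naloxone replicate 5 it was -0.63 (adjusted p = 0.231), and without saline replicate 3 it was -0.10. In the Chst9 gate the change was 0.13 (interval -0.25 to 0.51).

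Among other spiny nuclei Drd1 was 21.8, 19.1 and 23.6 CPM after saline and 13.6, 19.1 and 16.7 CPM after naloxone. Saline replicate 2 and naloxone replicate 5 were nearly equal, and the groups just failed to overlap (10.1% of genes were lower without overlap). The log2 change was -0.40 (SE 0.13, interval -0.69 to -0.11, unadjusted p = 0.012, adjusted p = 0.194). Without naloxone replicate 5 it was -0.49 with an adjusted p = 0.034, in a fit that called 1212 of 15374 genes (7.88%). Drd2 in that fit had a log2 change of -0.34 (adjusted p = 0.277) and Drd3 of -0.10 (adjusted p = 0.332). In Adora2a nuclei the residual Drd1 signal, which lay below the oligodendrocyte level, was 6.5, 5.0 and 4.5 CPM after saline and 3.0, 2.9 and 1.7 CPM after naloxone without overlap, as 8.43% of genes were (log2 change -1.13, unadjusted p = 0.0080, adjusted p = 0.415). In oligodendrocyte precursors, where it failed the count filter, Drd1 was higher after naloxone without overlap (mean 4.1 and 9.9 CPM, on 25 UMIs). The share of genes that did so there was not computed.

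Drd2 in the Adora2a gate did not pass the test (log2 change 0.06, interval -0.15 to 0.27, adjusted p = 0.936). Among other spiny nuclei the change was -0.17 (interval -0.59 to 0.25, adjusted p = 0.695). In the Slc5a7 gate Drd2 averaged 31.4 CPM after saline and 26.0 after naloxone (exact permutation p = 0.8, where 0.1 is the smallest 3 against 3 libraries can give).

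Drd3 had its clearest separation in the Chst9 gate, where its level is low. It was 9.0, 6.9 and 9.3 CPM after saline and 16.0, 14.2 and 14.4 CPM after naloxone, with no overlap (5.41% of genes there were higher without overlap). The log2 change was 0.84 (SE 0.23, interval 0.34 to 1.33, unadjusted p = 0.0021, adjusted p = 0.282). In the Ebf1 gate Drd3 was 40.1, 43.0 and 50.2 CPM after saline and 37.0, 74.9 and 83.8 after naloxone (log2 change 0.58, interval 0.14 to 1.02, unadjusted p = 0.013, adjusted p = 0.408), and naloxone replicate 4 was below all saline libraries. Without naloxone replicate 6 the change was 0.32, and without naloxone replicate 4 it was 0.85 (adjusted p = 0.071). In the Adamtsl1 gate the change was 0.31 (interval -0.02 to 0.65, adjusted p = 0.974), and in the Isl1 gate it was 0.30 with all libraries and -0.04 without naloxone replicate 5, which held 133 CPM there (that fit called 1.31% of genes and no receptor).

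In oligodendrocytes Drd3 was 1.1, 3.8 and 2.6 CPM after saline and 6.2, 12.5 and 2.6 after naloxone (log2 change 1.34, edgeR unadjusted p = 0.035, adjusted p = 0.444). The part of RNA from other nuclei in the Drd3 values of the Chst9 gate was not tested. Over all nuclei Drd3 was 43.4, 37.0 and 41.9 CPM after saline and 43.8, 62.8 and 47.8 after naloxone (log2 change 0.33, adjusted p = 0.310), with no overlap, as for 11.5% of genes. Without naloxone replicate 5 the change was 0.17, in a fit that called 1.35% of genes and no receptor. The share of Adamtsl1 nuclei with Drd3 at 1000 UMIs was 28.6 ± 5.87% after saline and 40.6 ± 5.02% after naloxone (exact permutation p = 0.1, the smallest possible), and in Chst9 nuclei 0.79 ± 0.58% and 1.90 ± 0.40% (exact permutation p = 0.1). Isl1 nuclei, with 4.06 ± 1.47% and 9.55 ± 2.70%, were also higher after naloxone at that p (exact permutation p = 0.1). So were other GAD nuclei, with 4.86 ± 1.46% and 8.04 ± 2.62%, and all nuclei, with 3.17 ± 0.24% and 4.33 ± 1.23%. The share went the other way in Adora2a nuclei, from 1.60 ± 0.39% to 0.73 ± 0.11% (exact permutation p = 0.1), where 20 of 1594 nuclei held a Drd3 UMI at that depth. It was also lower after naloxone in the Casz1-Mdfic gate (3.61% and 1.58%, exact permutation p = 0.3) and in the Slc5a7 gate (3.36% and 1.15%, exact permutation p = 0.2). Of the other receptors, Drd2 in Sst-Npy nuclei (4.75% and 0%) and Drd1 in astrocytes (1.16% and 0.49%) were lower with an exact permutation p = 0.1. How often all genes separate in such shares was not computed. At full depth Drd3 averaged 19.1 CPM after saline and 21.6 after naloxone in Adora2a nuclei. It averaged 14.2 and 23.1 CPM in Slc5a7 nuclei and 42.2 and 36.7 in Casz1-Mdfic nuclei. The level at full depth and the share at 1000 UMIs thus went opposite ways in the Adora2a and Slc5a7 gates. In both gates the groups overlapped in level. Drd3 in the Slc5a7 gate rests on 49 UMIs in 177 nuclei, 14 of them in 1 nucleus. Its SD after naloxone was 18.5 CPM.

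**Figure D4:**
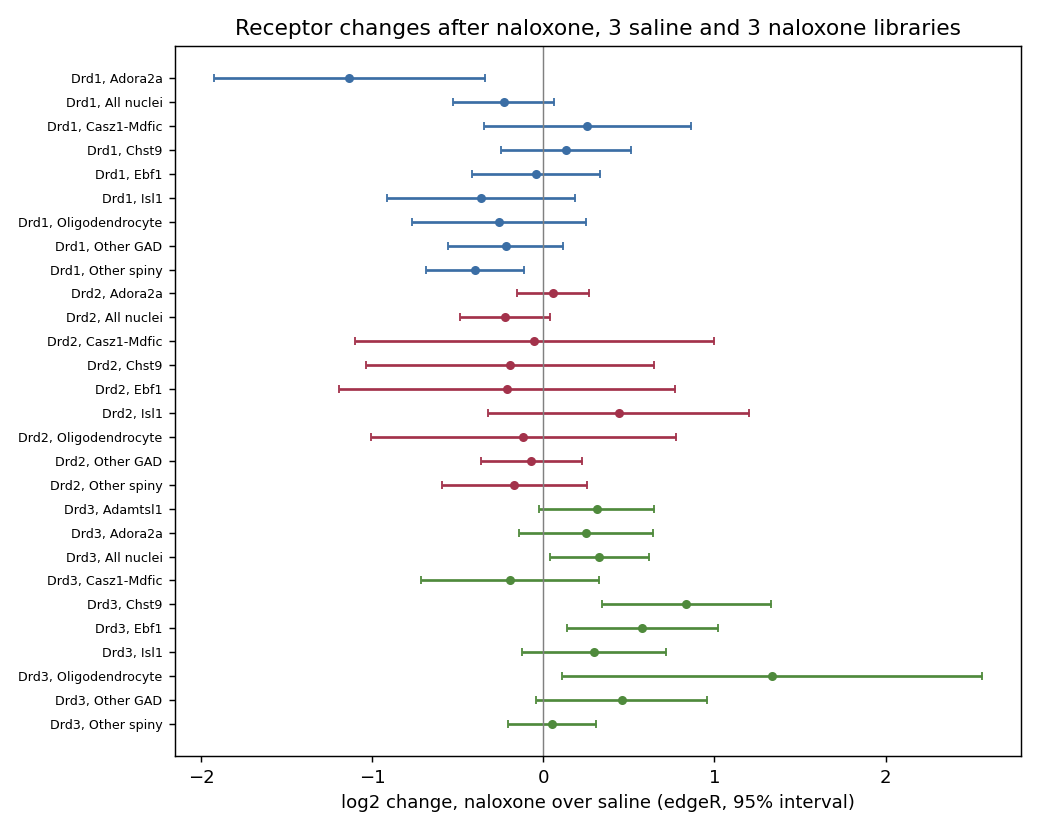
Log2 change of each receptor after naloxone in every fit where it passed the count filter, with 95% intervals from edgeR and 3 libraries a group. Most intervals include 0, and none of the 28 tests passed adjustment.

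**Figure D5:**
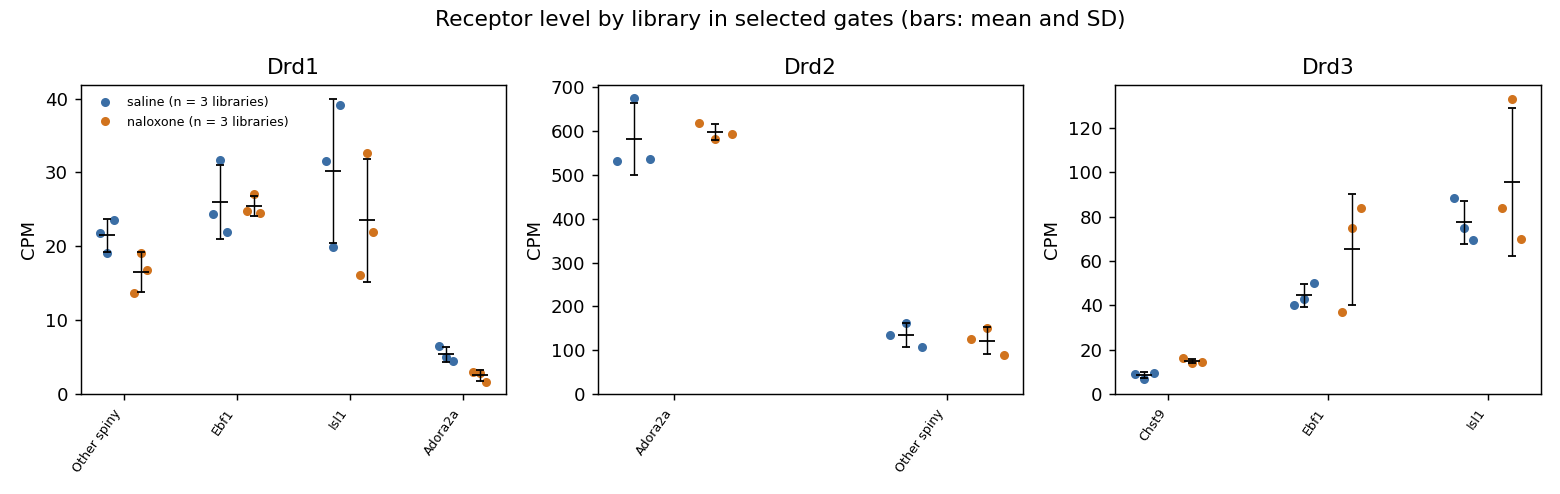
Receptor level (CPM, linear axes) by library in the gates discussed, with group mean and SD. Drd3 in the Chst9 gate was at most 9.3 CPM in saline and at least 14.2 CPM in naloxone libraries, while Drd2 in the Adora2a gate overlapped.

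Whether the response differed between gates was tested with a gate by treatment term and a block for each library. No receptor passed in the comparisons of Adora2a, Chst9 or Adamtsl1 with Ebf1 nuclei (0 of 9 tests by edgeR and 1 at an unadjusted p under 0.05, where 0.00912%, 0.0179% and 0.0602% of genes were called). That one was Drd1 in Adora2a minus Ebf1 nuclei, with a difference of -1.14 on the log2 scale (SE 0.40, adjusted p = 0.672). For Drd3 the change in Chst9 nuclei exceeded that in Ebf1 nuclei by 0.27 (interval -0.35 to 0.88, adjusted p = 0.951).

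Nuclei were divided into female and male ones by their Xist and Y-linked UMIs, and receptor CPM was compared within each library. No receptor passed adjustment over 15 tests. Drd2 in Adora2a nuclei was 617 ± 65.8 CPM in female and 597 ± 54.8 in male nuclei (log2 difference 0.04, higher in 4 of 6 libraries, exact sign-flip p = 0.406). Drd3 in Adamtsl1 nuclei was 415 ± 78.2 and 403 ± 68.0 CPM (log2 difference 0.04, higher in 5 of 6 libraries, exact sign-flip p = 0.750). Drd1 was lower in female than in male Ebf1 nuclei in 6 of 6 libraries (20.7 ± 6.85 and 32.2 ± 6.23 CPM, exact sign-flip p = 0.031, adjusted p = 0.234) and higher in female Casz1-Mdfic nuclei in 6 of 6 (41.6 ± 17.3 and 30.7 ± 11.3 CPM, exact sign-flip p = 0.031, adjusted p = 0.234).

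Around the receptors, 38 genes of dopamine signalling were followed in 4 roles. Of the G proteins, Gnal, the Golf subunit that couples Drd1 to adenylyl cyclase in striatum, stood at 799 CPM in the Adora2a gate, 738 in Ebf1, 758 in Adamtsl1 and 50.1 in oligodendrocytes. Gng7, its gamma partner, stood at 504, 379, 350 and 170.5 CPM. Gnao1, the Go subunit used by the Drd2 class, was highest in astrocytes (1345 CPM) and oligodendrocytes (961 CPM), against 415 CPM in Adora2a nuclei. On the cyclase side, Adcy5, the main striatal cyclase, stood at 584 CPM in the Adora2a and 512 in the Adamtsl1 gate, while Pde10a, which degrades cyclic nucleotides and was used in gating, stood at 2369 and 49.4. Prkacb, a catalytic subunit of protein kinase A, ranged from 150 in astrocytes to 325 in oligodendrocytes.

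Among desensitisation genes Rgs9, a regulator of G protein signalling that was also used in gating, stood at 1103 CPM in the Adora2a, 713 in the Adamtsl1 and 62.7 in the Slc5a7 gate, and the receptor kinase gene Grk5 stood at 320 CPM in the Slc5a7 gate against 50.0 in the Adora2a gate. Caly, which encodes calcyon, stood at 42.3 CPM in the Adora2a and 83.8 in the Chst9 gate. Of the synthesis and breakdown genes, Ddc, aromatic amino acid decarboxylase, stood at 496.7 CPM in the endothelial gate and, among neurons, at 33.9 in the Adora2a and 4.17 in the Chst9 gate. Maoa, a monoamine oxidase gene, was likewise highest in endothelium (506.9 CPM).

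After naloxone 1 of these genes passed in any of the 15 fits, which besides those above were Sst-Npy and endothelial (0% of genes called), astrocyte (0.184%), OPC (oligodendrocyte precursors, 0.365%) and microglia (0.0175%). Caly rose in oligodendrocytes from 51.7 ± 3.86 to 95.7 ± 8.01 CPM (log2 change 0.87, edgeR adjusted p = 0.0099), a call lost without saline replicate 1 or 3. The other 33 of 34 tested there did not pass. Among other spiny nuclei 0 of 38 tested rows passed by edgeR, 14 had an unadjusted p under 0.05 (36.8%, against 15.4% of all genes), and DESeq2 called 3. The median log2 change of the 38 was -0.04, against 0.00 over all 15163 genes. Without naloxone replicate 5, 12 rows passed, 9 lower and 3 higher, where 7.88% of all genes did. Ppp1r1b (DARPP-32, a phosphatase inhibitor downstream of Drd1) fell from 47.4 CPM in saline to 32.7 in naloxone replicates 4 and 6, and stood at 64.7 in naloxone replicate 5. Rgs9 fell from 759 to 479 CPM, and stood at 781 in naloxone replicate 5. The higher rows were Grk3 and 2 rows under the symbol Gnas (Gs subunit), whose reads may be shared. Gnal, Gng7, Gnb5, Adcy5, Pde10a, Pde1b and Prkar2b were the other lower ones. Rgs9 and Pde10a also served to select the other spiny nuclei, so their values there are not independent of the selection.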

How the data were processed

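The deposited values were raw UMI counts per gene and barcode, made with Cell Ranger 9.0.1 on build mRatBN7.2 per the submitters' processing notes, which also name Seurat 5.2.1 and R 4.4.0. Whether intronic reads were counted is not given in the sources used here. The receptors and gene lists were chosen with earlier results of these data known.

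A nucleus was used if it had 500 genes or more and 5% mitochondrial UMIs or fewer (61609). Scrublet in scanpy 1.11.5 called 2649 doublets at an expected 0.4% per 1000 nuclei, and these were removed. Gates asked for 2 to 4 UMIs of their marker genes and at most 1 UMI of other classes. Neuronal gates other than Adora2a allowed no UMI of Adora2a, Gpr6 or Gpr52. The glial and endothelial gates and the mixtures did not have that rule. Cuts were set without the receptor rows. Chat, Slc18a3 and Tac1 were not used here. Nuclei of the Adora2a, Ebf1 and Isl1 gates and of the other spiny mixture had 3 or more Pde10a UMIs and a UMI of Rgs9 or Bcl11b. The Chst9 and Casz1-Mdfic gates did not ask for these.

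CPM is the receptor's share of the summed UMIs of a gate and library, times 1000000. Sums were tested with edgeR 4.0.16 (TMM, filterByExpr, quasi-likelihood, adjusted p under 0.05) in gates with at least 20 nuclei per library. The edgeR test was also run on simulated sums. DESeq2 1.42.0 was used as an alternative and was not run on simulated sums. Gates and sexes were compared over the 6 libraries with exact sign-flip tests, and shares between groups with exact permutation tests, all 2-sided. Shares used nuclei thinned to 1000 UMIs. Nuclei with Xist and no Y-linked UMI were called female and the reverse male. Likeness used log2(mean CPM + 1). Named genes were the receptors in every gate, pathway genes called in any gate, the 3 most abundant of each role (1 of these is not reported here), and the 5 most similar to each receptor; the pathway genes called without naloxone replicate 5 were named after their values were seen. Intervals cover counting error or the spread between libraries, which pool animals.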

Additional observations from a re-analysis of the deposited data

How the results depend on the processing

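No paired analysis was possible because the saline and naloxone libraries share no replicate number. With 5 libraries a sign-flip test cannot go below 0.0625, so leaving one out there gave values with no test. The 108 alternatives for differences in receptor level between gates moved no difference by more than its SD. Genes called in Adora2a, Ebf1, Isl1, Casz1-Mdfic, other GAD (0 each), Chst9 (14), Adamtsl1 (1), other spiny (37), oligodendrocytes (53) and all nuclei (9) became, without the count filter, 96, 115, 60, 10, 39, 94, 47, 97, 292 and 41. DESeq2 called 11 in Adora2a, 5 in Ebf1, 2 in Isl1, 23 in other GAD, 2 in Adamtsl1, 322 in other spiny, 107 in oligodendrocytes and 407 in all nuclei. With 1 UMI more in each gate the counts were 2 in Adora2a, 17 in Ebf1 and 0 in Adamtsl1. RLE factors gave 14 in all nuclei, kept doublets 14 there and 34 in oligodendrocytes, and 1000 genes per nucleus 0 and 29. Leaving out 1 library gave 0 to 5 in Adora2a, 0 to 22 in Ebf1, 0 to 128 in Isl1, 2 to 20 in Chst9, 1 to 5 in Adamtsl1, 0 to 1212 in other spiny, 0 to 4 in other GAD, 6 to 72 in oligodendrocytes and 0 to 238 in all nuclei; the highest of Ebf1, Isl1, Chst9, other spiny, other GAD, oligodendrocytes and all nuclei came without naloxone replicate 5. Pathway genes called were 1 in Adora2a and 1 in other spiny without the filter, and with DESeq2 3 in other spiny and 4 in all nuclei. Over left-out libraries they were 0 to 1 in Isl1 and oligodendrocytes, 0 to 12 in other spiny and 0 to 4 in all nuclei.

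Drd3 in the Ebf1 gate had a log2 change of 0.57 with an adjusted p = 0.020 without the filter, the only alternative besides Drd1 without naloxone replicate 5 (-0.49 in other spiny, range over left-out libraries -0.49 to -0.28) to call a receptor. Drd2 changed sign at low levels: to 0.49 in Ebf1 and 0.0016 in oligodendrocytes with 1 UMI more, and to 0.41 in Casz1-Mdfic with doublets kept. Over left-out libraries Drd2 ran from -0.0016 to 0.17 in Adora2a, -0.74 to 0.52 in Ebf1, -0.44 to 0.36 in Chst9, -0.56 to 0.31 in Casz1-Mdfic, -0.34 to 0.0063 in other spiny, -0.17 to 0.082 in other GAD and -0.51 to 0.19 in oligodendrocytes. Drd1 ran from -0.15 to 0.12 in Ebf1 and -0.63 to -0.10 in Isl1, and Drd3 from 0.32 to 0.85 in Ebf1, 0.81 to 1.73 in oligodendrocytes, 0.15 to 0.68 in other GAD, -0.038 to 0.51 in Isl1 and -0.10 to 0.13 in other spiny. The gate by treatment differences ran, for Drd2, from -0.34 to 0.81 (Adora2a), -0.28 to 0.28 (Chst9) and -2.52 to 0.14 (Adamtsl1), for Drd1 from -0.11 to 0.38 (Chst9), and for Drd3 from -0.052 to 0.56 (Chst9) and -0.52 to 0.16 (Adamtsl1). The naloxone minus saline difference in share was 1.24 points at 3000 UMIs and 1.29 unthinned for Drd1 in Ebf1 (range -0.66 to 0.45), 0.062 with doublets and 2.49 with 1 UMI more for Drd2 in Adora2a (range -3.09 to 3.17), and -0.23 unthinned for Drd3 in Isl1. Drd3 by sex ran from -0.10 to 0.11 over all nuclei and was -0.025 in Adamtsl1 with 1 UMI more.

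The log2 odds ratios at 3000 UMIs, unthinned and as observed over expected were -2.05, -2.15 and -1.97 for Drd1 with Drd2, 0.71, 1.14 and 0.75 for Drd1 with Drd3 and -1.47, -1.23 and -1.45 for Drd2 with Drd3 in other spiny nuclei, and -1.04, -0.94 and -1.40 for the last in other GAD (-0.90 with doublets, -0.86 with 1000 genes). Their adjusted p was 0.068, 0.094 and 0.150, and 0.083 for the last 2 values. In Adora2a nuclei Drd2 with Drd3 was -1.07 with 1 UMI more, -0.35 at 3000 UMIs and -1.05 unthinned (range -0.41 to 0.57), and in other GAD Drd1 with Drd3 ranged from -0.025 to 0.77. The cause of these changes was not tested.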

Other observations

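Drd1 differed from the other receptors in how much of it was read in glia. Its CPM in oligodendrocytes was 91.5 ± 16.2% of its level over all nuclei of the same library (SD, n = 6), against 6.59 ± 2.01% for Drd2 and 9.76 ± 6.44% for Drd3. In microglia the values were 89.9 ± 18.6%, 13.9 ± 8.04% and 22.0 ± 16.0%, and in astrocytes 54.8% (44.6 to 71.0% over libraries), 5.81 ± 2.45% and 6.88 ± 6.20%. In the OPC gate they were 46.1 ± 32.1%, 5.02 ± 2.93% and 7.39 ± 4.99%, and Drd1 there ran from 13.6 to 104% over libraries. The lowest Drd1 value in oligodendrocytes (69.2%) lay above the highest of Drd2 (9.64%) and Drd3 (19.9%). Penk showed a like pattern, with 101 ± 28.4 CPM in oligodendrocytes against 143 in the Adora2a and 21.6 in the Ebf1 gate, and Pdyn stood at 10.3 ± 1.77 CPM in oligodendrocytes against 23.5 in the Ebf1 and 2.81 in the Adora2a gate.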
